A study of Mus musculus with 11 samples.

Results

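The insulin-like growth factor (IGF) system was followed through 10 genes: the ligands Igf1 and Igf2, the receptors Igf1r and Igf2r, and the binding protein genes Igfbp2 to Igfbp7. These are 10 of the 55487 gene rows in the deposited expression table. They were chosen from a gene list by symbol, with their genotype differences in fibroblasts and in spinal cord already known. Their genotype values, counts past a threshold included, are therefore a description and no evidence of a difference, and p-values are given only for their comparison between fibroblasts and cord.

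IGF1 and IGF2 are secreted growth factors that signal through the IGF1 receptor, a tyrosine kinase, to the PI3K-AKT and RAS-MAP kinase pathways. The IGF2 receptor, which is also the mannose 6-phosphate receptor, takes up IGF2 for breakdown in lysosomes. Secreted binding proteins hold the ligands outside the cell, where they can block or prolong their action, and proteases such as pappalysin release the ligands by cutting them. In the nervous system the ligands are known for support of neurons and of myelinating cells, and fibroblasts in culture secrete several of the binding proteins.

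The sequenced RNA came from spinal cord, and from primary cultures of fetal fibroblasts (MEF), of C57BL/6 mice, either wild-type or with the Morc2a p.S87L change on 1 allele. MORC2A is a chromatin ATPase whose variants are linked to neuropathy. The groups were 3 wild-type and 3 S87L cord libraries, and 3 wild-type and 2 S87L MEF libraries. The S87L mice are heterozygotes that keep a wild-type allele, and a table of expression values cannot show the changed base, so the genotypes are those of the labels. No age, cord segment or culture passage is stated in the labels. Nor do the labels say if each library is a separate animal or culture, so the p-values measure only spread among libraries, and this spread may be technical.

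Depth, as whole reads recovered from the deposited values, was 12.08 to 23.53 M reads per library. The cord libraries had 15.35 to 18.97 M in wild-type and 19.4 to 23.53 M in S87L. The cord libraries held the markers of neurons (10 genes, summed level 1640 to 1700 FPKM) and oligodendrocytes (6 genes, 3190 to 3490 FPKM). FPKM, fragments per kilobase of gene scaled to the depth of the library, is a level per length. The MEF libraries held the 8 markers of cultured fibroblasts at a sum of 1900 to 1970 FPKM, and also 10 microglia and macrophage markers at a sum of 209 to 251 FPKM. In these bulk samples, fewer cells of a type and less RNA per cell cannot be told apart.

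In MEF the binding protein genes gave the largest genotype differences among the 10, so the promoters of 4 of them are shown: Igfbp2, Igfbp3 and Igfbp4, which were lower in S87L MEF, and Igfbp7, which was higher. All 10 genes had at least 1 window in the RefSeq promoter table (GRCm38.p6), 14 windows in all, each with 250 bases before the transcript start and 50 after it. The sequences run 5′ to 3′ on the strand of the gene, and capitals mark 1 of 3 core promoter motifs, each searched on both strands. The GC box was searched as GGGCGG. The letters of the TATA box were TATAAA. For the CCAAT box the search took the letters of its name. The windows are chr1:72824230-72824529 on the plus strand for Igfbp2 (the first of 2 windows), chr11:7213874-7214173 on the minus strand for Igfbp3, chr11:99040994-99041293 on the plus strand for Igfbp4, and chr5:77407996-77408295 on the minus strand for Igfbp7.
Igfbp2: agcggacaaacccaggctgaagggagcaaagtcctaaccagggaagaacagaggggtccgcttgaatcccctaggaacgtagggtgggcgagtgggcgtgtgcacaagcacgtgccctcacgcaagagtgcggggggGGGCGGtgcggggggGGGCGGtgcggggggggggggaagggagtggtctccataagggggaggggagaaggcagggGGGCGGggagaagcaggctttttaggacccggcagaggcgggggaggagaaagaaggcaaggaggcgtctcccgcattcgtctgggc
Igfbp3: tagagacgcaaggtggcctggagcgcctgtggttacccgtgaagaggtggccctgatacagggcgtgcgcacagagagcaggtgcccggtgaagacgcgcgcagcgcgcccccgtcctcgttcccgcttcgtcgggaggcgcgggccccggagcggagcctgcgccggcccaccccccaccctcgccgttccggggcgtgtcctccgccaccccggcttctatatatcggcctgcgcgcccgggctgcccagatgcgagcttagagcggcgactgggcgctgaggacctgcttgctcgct
Igfbp4: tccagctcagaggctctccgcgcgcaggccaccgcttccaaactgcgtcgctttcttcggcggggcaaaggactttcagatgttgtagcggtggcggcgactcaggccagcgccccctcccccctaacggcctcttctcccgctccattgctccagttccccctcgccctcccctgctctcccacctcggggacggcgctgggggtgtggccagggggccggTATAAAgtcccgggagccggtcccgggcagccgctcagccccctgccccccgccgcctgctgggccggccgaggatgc
Igfbp7: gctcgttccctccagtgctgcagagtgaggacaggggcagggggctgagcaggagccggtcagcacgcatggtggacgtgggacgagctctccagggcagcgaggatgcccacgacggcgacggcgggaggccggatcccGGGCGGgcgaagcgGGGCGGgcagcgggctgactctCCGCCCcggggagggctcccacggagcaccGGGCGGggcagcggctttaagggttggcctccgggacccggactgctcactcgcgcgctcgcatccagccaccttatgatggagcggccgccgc
The 3 genes that were lower together did not share a motif of the 3 searched. Igfbp2 had 3 GC boxes, at -113, -98 and -37 from the start, Igfbp4 had a TATA box at -28 and no GC box, and the Igfbp3 window held none of the searched letters. Igfbp7 had 4 GC boxes, at -110, -96, -74 and -44. Over 32851 windows of 27025 genes, 35.7% held a GC box, 13.6% a TATA box and 37.4% a CCAAT box. All 4 windows were rich in CpG dinucleotides, the sites of DNA methylation, with 18 in Igfbp2, 37 in Igfbp3, 27 in Igfbp4 and 33 in Igfbp7 against a median of 7 over all windows. Any relation of the CpG count to the MEF differences over the 10 genes was not tested. Igf1r had 48 and Igf2r 34, and both differed little in MEF. Igf1, which was lower in S87L MEF, had 6. Igfbp5 had 10, Igfbp6 had 8 and the second Igfbp2 window had 14. The windows of Igf2 had 7, 24, 14 and 2. These motifs were chosen after the expression values were seen, and a match describes letters, not a bound factor.

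In wild-type MEF 5 of the 6 binding protein genes, all but Igfbp6, were the most abundant of the 10, led by Igfbp2. Its FPKM was 254, 250 and 259, above Igfbp5 with 187, 192 and 191. Igfbp4 and Igfbp7 followed at means of 154 and 152 FPKM, with overlapping libraries, then Igfbp3 at 130 and Igf2r at 113 FPKM. Igf2 (44.6), Igfbp6 (33.3), Igf1r (17.9) and Igf1 (10.6 FPKM) were lower, each apart from the next in that order. In wild-type cord the leading gene was Igfbp7 at 25.8 FPKM. Igfbp5 (18.9), Igfbp2 (17.1) and Igfbp6 (16.7 FPKM) followed, each overlapping the next, and Igfbp4 (7.22) overlapped Igfbp3 (6.34 FPKM). Igf1r was at 5.7, Igf2r at 5.2, Igf1 at 1.63 and Igf2 at 0.17 FPKM, each apart from the next.

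**Figure D1:**
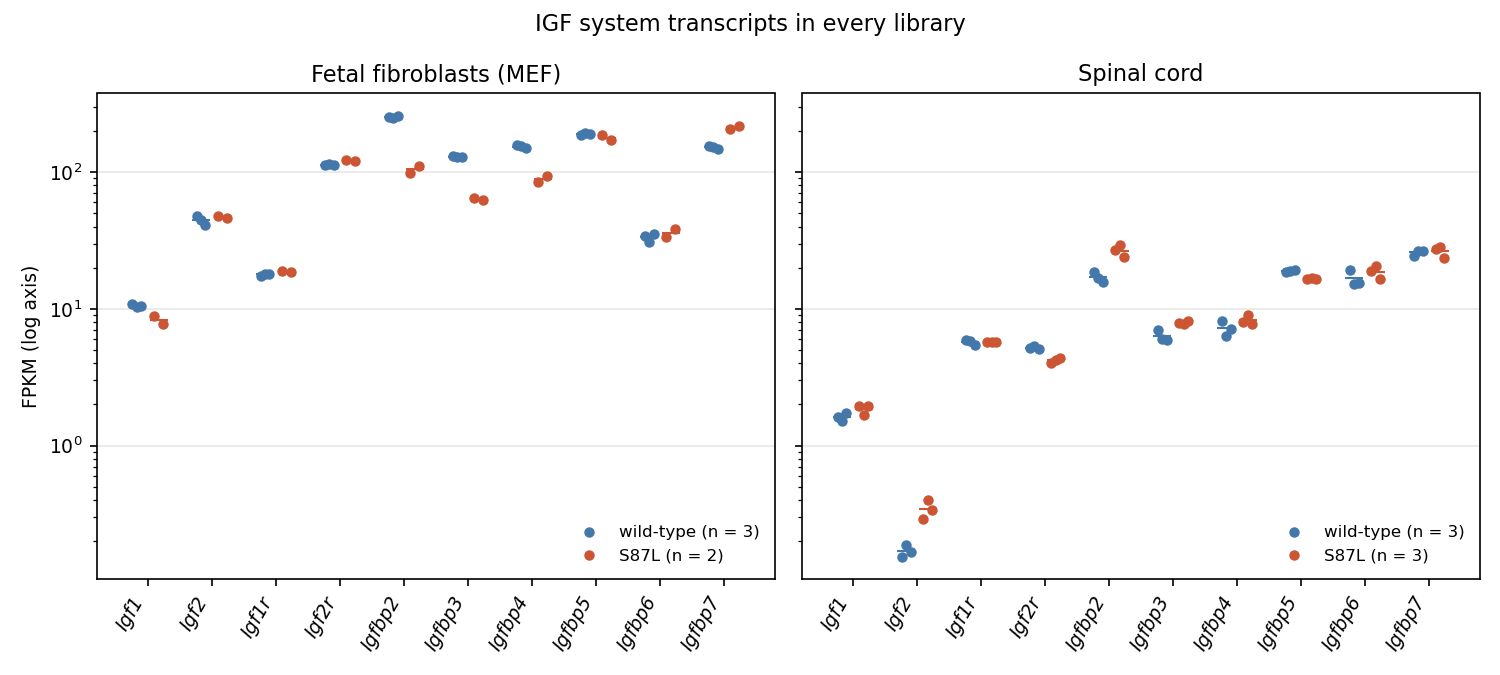
FPKM on a log axis of the 10 IGF system genes in each library, MEF on the left and spinal cord on the right, with wild-type libraries in blue, S87L libraries in orange and group means as short lines. Igfbp2, Igfbp3 and Igfbp4 sit lower in S87L than in wild-type MEF without overlap, Igfbp2 and Igfbp3 sit higher in S87L than in wild-type cord, and Igf2 lies under 0.5 FPKM in every cord library.

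All 10 genes had a higher level in every wild-type MEF library than in any wild-type cord library. Of all genes, 88.5% had libraries that did not overlap in either direction, and the share of these higher in MEF was not counted. This comparison took no part in how the 10 genes were chosen, though it uses the same wild-type libraries as the genotype comparisons. Igf2 passed the level filter only through MEF and had to differ, so it is left out of the test. The other 9, at 0.5 FPKM or more on average in both groups, each passed the threshold, which was an adjusted p under 0.05 (limma, with Benjamini-Hochberg adjustment across the whole table), in a comparison where 87.6% of all genes passed, 40.3% of them higher and 47.4% lower in MEF (shares of all tested). The median difference over these 9 was 3.29 on the log2(FPKM + 0.5) scale, against -0.12 over all genes. Because FPKM is relative to each library and the make-up of a tissue and a culture differs, the size of such a difference depends on scaling: quantile normalization moved the median of all genes to 0.15.

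Igf2, the fetal growth factor that is imprinted and expressed from the paternal allele, was at a mean of 44.6 FPKM in wild-type MEF and 0.17 FPKM in wild-type cord. The gene for its receptor Igf2r differed by 4.32 ± 0.03 on the log2 scale (SE, limma adjusted p = 2.99e-11). Igfbp4 differed by 4.33, Igfbp3 by 4.25, Igfbp2 by 3.86 and Igfbp5 by 3.29 on the same scale. The smaller differences were those of Igfbp7 (2.53), Igf1 (2.38), Igf1r (1.57) and Igfbp6 (0.98 ± 0.09, limma adjusted p = 3.03e-05). Igfbp6 was thus 1.99-fold higher in MEF, and its level of 16.7 ± 2.22 FPKM in wild-type cord (SD, n = 3) stood close to that of Igfbp2.

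By genotype, 5 of the 10 genes were past the threshold in MEF, 1 higher (Igfbp7) and 4 lower (Igfbp2, Igfbp3, Igfbp4 and Igf1) in S87L, where 11.2% of all 13773 genes tested passed, 4.91% higher and 6.32% lower. In 8 of the 10 the MEF libraries did not overlap between genotypes, against 45.8% of all genes. In cord, Igf2 was below the mean of 0.5 FPKM needed for the fit, and 4 of the other 9 were past the threshold, Igfbp2 and Igfbp3 higher and Igf2r and Igfbp5 lower. There 12.9% of all 15648 genes passed, 5.17% higher and 7.71% lower. Those 4 of the 9 fitted genes had cord libraries that did not overlap, against 35.1% of all genes. Because these contrasts were in view when the genes were chosen, nothing is read from the counts. The median difference of the 10 in MEF was -0.01, and -0.01 over all genes. For cord the median was 0.15 over the 9 and -0.02 over all genes.

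**Figure D2:**
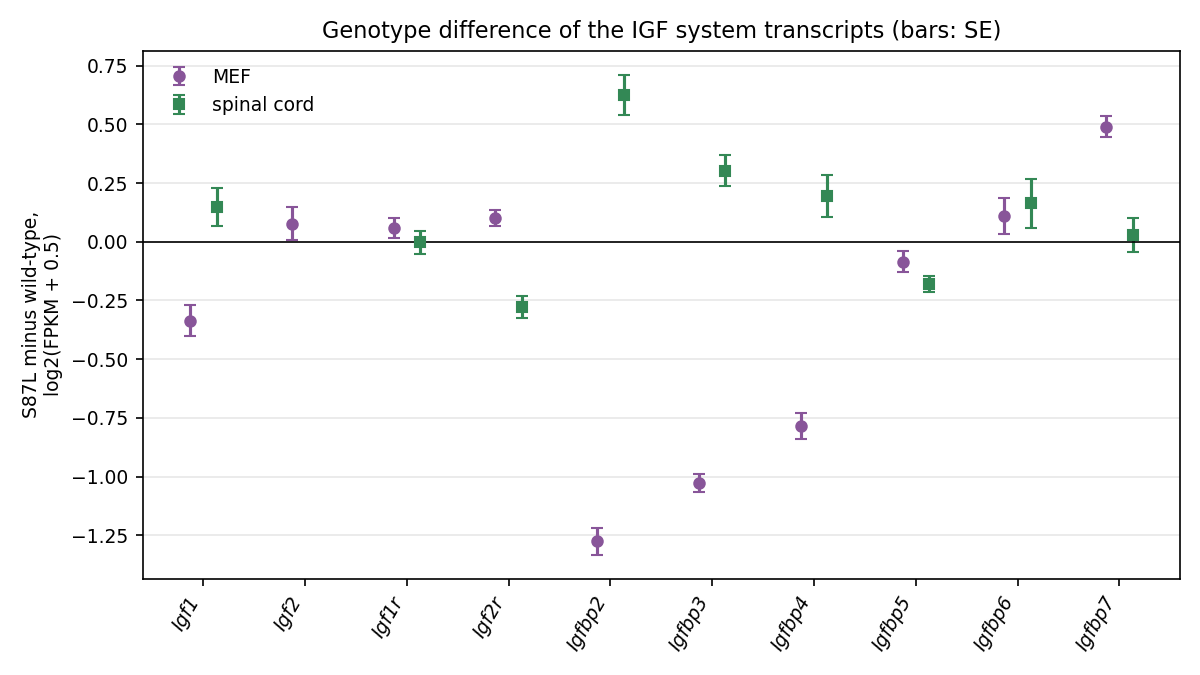
Difference of S87L minus wild-type on the log2(FPKM + 0.5) scale for each IGF system gene, circles for MEF and squares for spinal cord, with bars of 1 SE from limma. Igfbp2 lies at -1.28 in MEF and at 0.62 in cord, Igfbp3 and Igfbp4 are also below 0 in MEF and above 0 in cord, and Igf2 has no cord value because it was below the level filter.

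Of the ligands, Igf1 (ENSMUSG00000020053, chromosome 10, 87858265 to 87937042) is the growth factor that acts downstream of growth hormone. The wild-type MEF libraries were at 10.9, 10.3 and 10.5 FPKM, and the S87L MEF libraries at 8.81 and 7.75. Both S87L libraries lay below all wild-type ones, and the log2 difference was -0.34 ± 0.07 (SE). Leaving out wild-type MEF library 1, 2 or 3, or S87L MEF library 2, left Igf1 not past the threshold, at -0.31, -0.35 or -0.34, or at -0.25. In cord, Igf1 was at 1.63, 1.52 and 1.74 FPKM in wild-type libraries and at 1.94, 1.67 and 1.96 FPKM in S87L ones, overlapping groups with a difference of 0.15 ± 0.08.

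Igf2 (ENSMUSG00000048583, chromosome 7, 142650766 to 142666816) was at 47.9, 45 and 40.9 FPKM in wild-type MEF and at 47.7 and 46.3 FPKM in S87L MEF. The groups overlapped, with a log2 difference of 0.08 ± 0.07. The wild-type cord libraries were at 0.154, 0.189 and 0.167 FPKM, and the S87L ones at 0.293, 0.4 and 0.337. The S87L cord libraries were all higher, with a ratio of means of 2.02, on 46 reads in all in wild-type and 121 in S87L. Of the exon bases of Igf2, 62.8% are also exon bases of Gm49394 on the same strand, and no source used here says how such reads were counted, so its level is uncertain. Gm49394 itself was at 0.0465 to 0.124 FPKM in the MEF libraries.

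With Igf1 lower and Igf2 overlapping between genotypes, the ratio of Igf2 to Igf1 FPKM was 3.9 to 4.38 in wild-type MEF and 5.42 to 5.97 in S87L MEF. In cord the ratio was 0.0948 to 0.125 in wild-type and 0.151 to 0.239 in S87L, so Igf1 was the more abundant ligand there in every library. Igf2 was the more abundant ligand in every MEF library.

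Among the receptors, Igf1r (ENSMUSG00000005533, chromosome 7, 67952827 to 68233668), the signalling kinase, differed little between genotypes. It was at 17.4, 18.1 and 18.1 FPKM in wild-type MEF and at 18.8 and 18.5 in S87L MEF, a log2 difference of 0.06 ± 0.04. Cord levels were 5.93, 5.78 and 5.4 in wild-type libraries and 5.68, 5.69 and 5.68 FPKM in S87L, with a difference under 0.01 in size (SE 0.05). The MEF groups lay apart by less than 1 FPKM and the cord groups overlapped.

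Igf2r (ENSMUSG00000023830, chromosome 17, 12682406 to 12769664), the scavenging receptor, differed in opposite directions. In MEF it was at 113, 114 and 112 FPKM in wild-type and at 123 and 120 in S87L, both higher (0.10 ± 0.04, not past the threshold). The wild-type cord libraries were at 5.17, 5.32 and 5.1 and the S87L ones at 4.03, 4.22 and 4.36 FPKM. All S87L cord libraries were below the wild-type ones, with a difference of -0.28 ± 0.05. Without S87L cord library 1 or 2 it was not past the threshold, at -0.25 and -0.28. The ratio of Igf2r to Igf1r FPKM was 0.872 to 0.945 in wild-type and 0.71 to 0.766 in S87L cord, and 6.22 to 6.52 over all MEF libraries.

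Igfbp2 (ENSMUSG00000039323, chromosome 1, 72824503 to 72852474) encodes a binding protein that prefers IGF2 and is abundant in fetal tissue and in the fluid around the brain. It had the largest fitted log2 difference by genotype of the 10 in MEF and of the 9 fitted in cord. The wild-type MEF libraries were at 254, 250 and 259 FPKM and the S87L ones at 98.5 and 111, or 254 ± 4.72 (SD, n = 3) and 105 ± 9.14 (SD, n = 2). The S87L level was 0.413 of the wild-type one, a log2 difference of -1.28 ± 0.06 (SE). In cord the order was turned: 18.7, 16.8 and 15.8 FPKM in wild-type and 26.8, 29.4 and 23.9 in S87L, a difference of 0.62 ± 0.09 with no overlap. Its genotype difference in MEF minus that in cord was -1.90 ± 0.12. Over all alternatives run, the Igfbp2 difference ranged from -1.36 to -1.19 in MEF and from 0.555 to 0.731 in cord.

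Igfbp3 (ENSMUSG00000020427, chromosome 11, 7206086 to 7213923) encodes the main carrier of IGFs in blood. It stood at 132, 128 and 129 FPKM in wild-type MEF and at 64.3 and 62.3 FPKM in S87L MEF. That is 0.488 of the wild-type level, a difference of -1.03 ± 0.04 with a gap between the groups far wider than the spread inside them. Its cord FPKM was 7, 6.05 and 5.96 for wild-type and 7.86, 7.76 and 8.13 for S87L, higher in all S87L libraries (0.30 ± 0.07). Leaving out any cord library except wild-type 1 left it not past the threshold, at 0.26 to 0.32.

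Igfbp4 (ENSMUSG00000017493, chromosome 11, 99041244 to 99054392), whose protein mostly inhibits IGF action and is the substrate of pappalysin, followed the same order in MEF. It was at 158, 154 and 149 FPKM in wild-type and at 84.6 and 93.8 in S87L, or 0.579 of the wild-type level (-0.79 ± 0.05). In cord the groups overlapped, with 8.1, 6.38 and 7.16 FPKM in wild-type and 8.07, 9.08 and 7.8 in S87L (0.20 ± 0.09). Over all alternatives run, the MEF difference ranged from -0.86 to -0.71 for Igfbp4.

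Igfbp5 (ENSMUSG00000026185, chromosome 1, 72857932 to 72874884) lies tail to tail with Igfbp2, with 5.46 kb between the gene ends, and its product binds to extracellular matrix. In MEF it was at 187, 192 and 191 FPKM in wild-type and at 186 and 172 in S87L, a small difference of -0.09 ± 0.04 that was not past the threshold. Wild-type cord libraries were at 18.7, 19 and 19.1 FPKM and S87L ones at 16.6, 16.7 and 16.6, lower in all S87L libraries (-0.18 ± 0.03). Without wild-type cord library 2 or 3, or S87L cord library 1 or 2, it was not past the threshold, at -0.17 to -0.19. The neighbours thus lay on opposite sides of 0 in cord, with Igfbp2 higher and Igfbp5 lower. The ratio of Igfbp2 to Igfbp5 FPKM was 1.3 to 1.36 in wild-type and 0.53 to 0.646 in S87L MEF, and 0.827 to 1 in wild-type and 1.44 to 1.76 in S87L cord.

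Igfbp6 (ENSMUSG00000023046, chromosome 15, 102144362 to 102149511), whose product binds IGF2 over IGF1, overlapped between genotypes throughout. It was at 34, 30.8 and 35 FPKM in wild-type MEF and at 33.6 and 38.4 in S87L MEF (0.11 ± 0.08). Cord libraries were at 19.3, 15.3 and 15.5 FPKM in wild-type and at 19, 20.6 and 16.6 in S87L (0.16 ± 0.11).

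Igfbp7 (ENSMUSG00000036256, chromosome 5, 77349240 to 77408041) encodes a secreted protein related to the others that binds IGFs weakly. It was the only one of the 10 past the threshold with a higher level in S87L MEF, at 156, 152 and 147 FPKM in wild-type and at 208 and 218 in S87L. The ratio of means was 1.41 and the log2 difference 0.49 ± 0.04, with no overlap. In cord the groups overlapped around a difference near 0, at 24.5, 26.3 and 26.7 FPKM in wild-type and at 27.2, 28.5 and 23.6 in S87L (0.03 ± 0.07). Of its exon bases, 7.03% are shared with Polr2b on the opposite strand, and no source used here says whether counting used the strand.

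The transcripts of the binding protein genes were also summed, with Igfbp7 included although its product binds IGFs weakly. The sum and its ratio to the ligands are therefore levels of transcripts and no measure of ligand binding. The sum of the 6 genes was 907 to 922 FPKM in wild-type MEF and 675 to 696 in S87L MEF. The cord sum was 89.9 to 96.2 in wild-type and 96.6 to 112 FPKM in S87L. Igfbp2 made up 27.6% to 28.5% of the sum in wild-type MEF and 14.6% to 16% in S87L MEF, while Igfbp7 went from 16.1% to 17% up to 30.8% to 31.3%. The leading binding protein transcript was therefore Igfbp2 in every wild-type MEF library and Igfbp7 in both S87L MEF libraries. In cord the share of Igfbp2 was 17.5% to 19.4% in wild-type and 24.7% to 26.2% in S87L, and that of Igfbp5 was 19.4% to 21.2% and 14.9% to 17.2%. The ratio of the 6 binding proteins to both ligands was 15.7 to 17.7 in wild-type and 11.9 to 12.9 in S87L MEF, and overlapped in cord at 47.2 to 54 and 42 to 54.1.

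**Figure D3:**
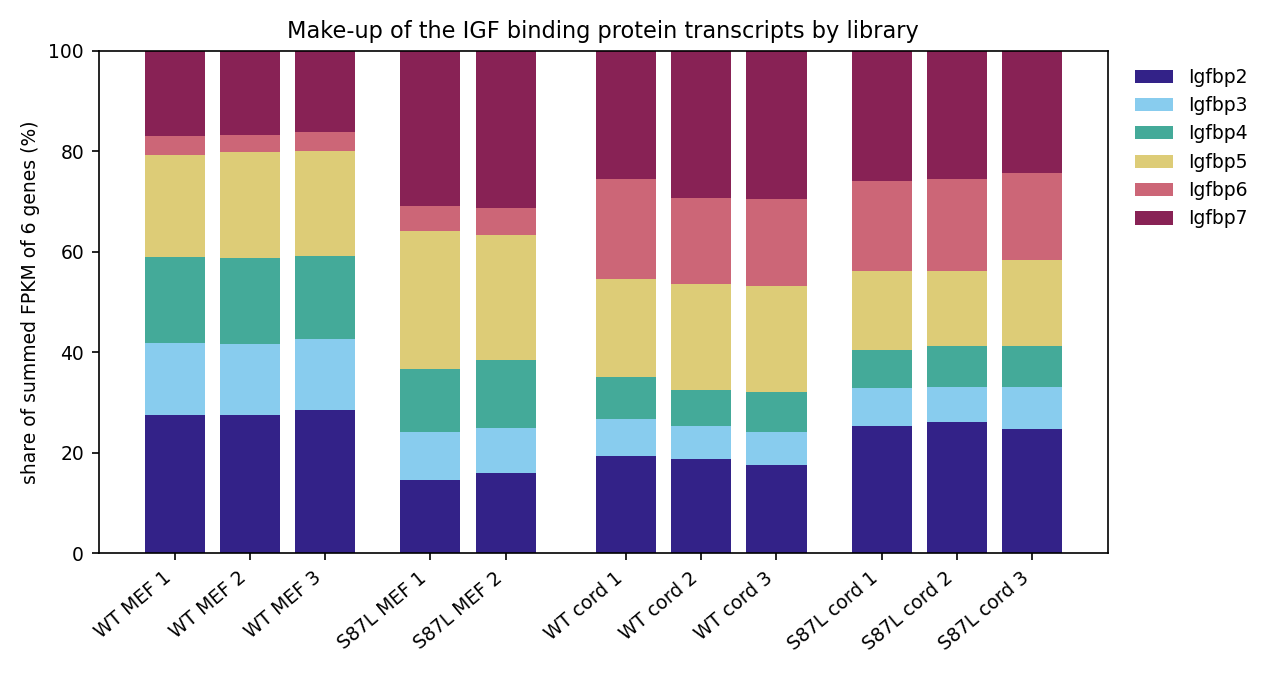
Share in percent of each of the 6 binding protein genes in their summed FPKM, 1 bar per library, from wild-type MEF on the left to S87L cord on the right. The Igfbp2 segment shrinks from about 28% to about 15% between wild-type and S87L MEF as the Igfbp7 segment grows, and in cord the Igfbp2 segment is larger in S87L.

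Markers of other cell types were also compared between genotypes in cord, where rose and fell mean past the threshold. The marker lists, here and for MEF, were chosen with earlier results of these data known. Their counts and p-values are therefore a description and no independent evidence. Of all genes tested in cord 12.9% passed, 5.17% higher and 7.71% lower in S87L. A count of 1 or 2 genes of a list is therefore not read as a change of a cell type. Of 12 meninges and fibroblast markers, 9 rose in S87L cord and none fell. The summed level of the 12 was 337 to 362 FPKM in wild-type and 448 to 477 in S87L. Most of this sum was Ptgds, at 329, 305 and 324 FPKM in wild-type and 421, 407 and 393 in S87L. Among the 9 that rose, Ogn rose by 1.14 and Dcn by 1.22 (limma adjusted p = 3.83e-05 and 4.56e-05). All 9 skeletal muscle markers rose (sum 13.8 to 18.4 and 71.9 to 76.7 FPKM), as did 7 of 10 microglia and macrophage markers (286 to 307 and 367 to 378 FPKM), 3 of 4 tested Schwann cell markers (82.6 to 86.1 and 103 to 106 FPKM) and 3 of 5 red blood cell markers (336 to 371 and 409 to 447 FPKM). Of 10 neuron markers 2 fell, and of 10 endothelial and pericyte markers 1 rose and 1 fell. Of 6 astrocyte markers 1 rose and 1 fell. Of 6 oligodendrocyte markers 1 rose, with sums of 3400 to 3490 FPKM in wild-type and 3190 to 3350 in S87L cord. The markers of cultured fibroblasts did not rise as a list. Of 5 tested 1 rose and 1 fell, with sums of 220 to 227 FPKM in wild-type and 211 to 215 in S87L cord. No marker of these lists was at 0 in cord. Their part in the higher cord levels of Igfbp2, Igfbp3 and Igf2 was not tested.

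In MEF 11.2% of all genes tested passed the threshold, 4.91% higher and 6.32% lower in S87L. Here too, 1 or 2 genes of a list are not read as a change of a cell type. Of 9 tested meninges and fibroblast markers 4 fell in S87L MEF (Lum, Dcn, Col3a1 and Aldh1a2). The sums of this list were 3790 to 3810 FPKM in wild-type and 3270 to 3540 in S87L. Col1a1 and Col1a2 held most of it, at means of 2430 and 708 FPKM in wild-type and 2250 and 635 in S87L. Neither of these passed the threshold (limma adjusted p = 0.23 and 0.051). Lum, a small matrix proteoglycan, fell by 1.20 and Dcn by 0.92 on the log2 scale (limma adjusted p = 0.000113 and 0.000791). Of 8 markers of cultured fibroblasts 2 fell (Fbn1 and Twist1), while the sum was 1900 to 1940 FPKM in wild-type and 1970 FPKM in both S87L libraries. Of 10 microglia and macrophage markers 2 fell (Tmem119 and Cx3cr1), with sums of 249 to 251 and 209 to 223 FPKM. Of 3 tested Schwann cell markers 2 fell (Pmp22 and Prx), with sums of 72.9 to 78.4 and 57.5 to 59.2 FPKM. Of 6 tested endothelial and pericyte markers 1 rose and 1 fell (sums 127 to 130 and 114 to 118 FPKM), and Des, the 1 myoblast marker tested, fell, with Myf5 and Myf6 at 0. Of 8 proliferation genes 1 rose (Bub1). The 5 red blood cell markers were at 0 in both S87L MEF libraries and at most at 0.0305 FPKM in sum in wild-type MEF. Their part in the MEF differences of Igfbp2, Igfbp3, Igfbp4 and Igfbp7 was not tested.

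Genes whose level followed the binding proteins most closely over the 11 libraries were sought by Pearson correlation among 12538 genes, a description dominated by the difference between MEF and cord that all libraries share. For Igfbp2 they were Mylk (r = 0.9974), Mfap4 (0.9943) and Lum (0.9942). Each was lower in S87L MEF and higher in S87L cord (-0.61 and 0.25, -1.55 and 1.34, and -1.20 and 0.59 on the log2 scale). All such genes were picked on the same 11 libraries, so a shared direction is partly built into the choice. For Igfbp3 they were Eln (0.9991), Adh7 (0.9983) and Boc (0.9982). Igfbp4 came nearest to Arhgef39 (0.9994), Eln (0.9993) and Ccn3 (0.9992). Eln, the gene for elastin, had differences of -1.57 in MEF and 0.47 in cord. Igfbp7 came nearest to Btg2 and Runx3 (both 0.9986) and Nr2f2 (0.9984), and Igfbp5 to Col12a1, Notch2 (both 0.9999) and Piezo2 (0.9998).

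For the other members the nearest genes were Cyth3 (0.9983), Lurap1l and Zfp646 for Igf1, Lox, Yap1 and H6pd (0.9997 each) for Igf2, Phldb2 (0.9997), Ammecr1 and Mex3a for Igf1r, and Tnfaip1 (0.9999), Nid1 and F2r for Igf2r. Igfbp6 had the lowest values, with Tomm40 at 0.9906.

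Beyond the 10 genes, 68 further genes of the pathway were listed, from binding protein proteases to the PI3K-AKT and RAS-MAP kinase cascades. This list too was chosen with earlier results of these data known. Its counts and p-values, here and below, are therefore a description and no independent evidence. In S87L MEF 61 of them were tested and 11 (18% against 11.2% of all genes) passed the threshold, 8 higher and 3 lower, with a median difference of 0.04 against -0.01 over all genes. In S87L cord 56 were tested and 4 passed (7.14% against 12.9% of all genes), all higher, with a median of 0.01 against -0.02. Leaving out 1 MEF library gave 3 to 13 genes (4, 3 and 3 without wild-type library 1, 2 or 3, 5 and 13 without S87L library 1 or 2), and leaving out 1 cord library gave 2 to 6 (2 without S87L library 2).

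Of 6 proteases and their inhibitors, 3 passed in MEF, 1 higher and 2 lower, and 1 of 4 tested passed in cord, higher. Pappa2, which cuts IGFBP3 and IGFBP5, fell from 1.66, 1.69 and 1.55 FPKM in wild-type MEF to 0.556 and 0.508 in S87L MEF. Its log2 difference was -1.05 ± 0.10 (limma adjusted p = 0.00288). Pappa, which encodes pappalysin 1 and cuts IGFBP4, rose from 19, 20 and 19.6 FPKM to 24.7 and 22.6 (0.27 ± 0.05, limma adjusted p = 0.0275). Htra1, a secreted serine protease that also cleaves binding proteins, fell in MEF from 67.7, 67.6 and 67 to 57.2 and 60.8 FPKM and rose in cord from 93.9, 89.1 and 89.5 to 103, 106 and 98.3 FPKM. Its differences were -0.19 ± 0.04 and 0.17 ± 0.04 (limma adjusted p = 0.0327 and 0.0309). The MEF calls of Pappa and Htra1 were lost without any one wild-type library or S87L library 1 (adjusted p up to 0.0958 and 0.129), and the cord call of Htra1 without wild-type library 2 or 3 or S87L library 1 or 2 (up to 0.12). Pappa2 was called whichever library was left out (adjusted p up to 0.0195).

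At the receptor and in the cascade below it, Grb14, an adaptor that inhibits insulin receptor signalling, rose in S87L MEF. It was at 2.09, 2.0 and 2.04 FPKM in wild-type and at 3.75 and 3.64 in S87L MEF, a difference of 0.72 ± 0.07 (limma adjusted p = 0.00252). Rictor, the defining subunit of mTOR complex 2, rose from 5.32, 5.25 and 5.27 to 8.81 and 7.36 FPKM (0.57 ± 0.08, limma adjusted p = 0.00909). Pik3cb, a catalytic subunit of PI3 kinase, rose from 2.66, 2.43 and 2.3 to 3.76 and 3.49 FPKM (0.48 ± 0.08, limma adjusted p = 0.0166). Ghr, the growth hormone receptor that drives Igf1 expression in liver, rose from 7.81, 7.92 and 7.81 to 11.7 and 9.79 FPKM (0.42 ± 0.08, limma adjusted p = 0.021). Nras rose by 0.20 ± 0.04 (limma adjusted p = 0.0293). The calls of Grb14 and Rictor held whichever library was left out (adjusted p up to 0.0191 and 0.0421). Those of Ghr and Nras were lost without any 1 of the 3 wild-type libraries, that of Nras also without S87L library 2, and that of Pik3cb without wild-type library 2 or 3 or S87L library 1 (adjusted p up to 0.0744, 0.121 and 0.0757).

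In S87L cord, H19, the imprinted non-coding RNA 72.6 kb from Igf2, rose from 0.718, 0.714 and 0.583 to 1.55, 1.68 and 1.5 FPKM. Its difference was 0.83 ± 0.09 (limma adjusted p = 0.00219), and like Igf2 it was low in cord, on 79 reads in wild-type and 238 in S87L. In MEF it was very abundant, at 1810, 1810 and 1870 FPKM in wild-type and 1590 and 1750 in S87L (-0.13 ± 0.05, limma adjusted p = 0.155). Akt2, a kinase of the insulin and IGF pathway, rose in cord from 8.6, 8.56 and 8.43 to 10.8, 10.4 and 10.4 FPKM (0.29 ± 0.04, limma adjusted p = 0.00518). Foxo3, a transcription factor that AKT keeps out of the nucleus, rose from 12.8, 12.3 and 12.7 to 15.2, 15.0 and 14.5 FPKM (0.23 ± 0.04, limma adjusted p = 0.0104), a call lost without S87L library 2 (0.0529). H19 and Akt2 were called whichever library was left out (adjusted p up to 0.0157 and 0.0288).

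**Figure D4:**
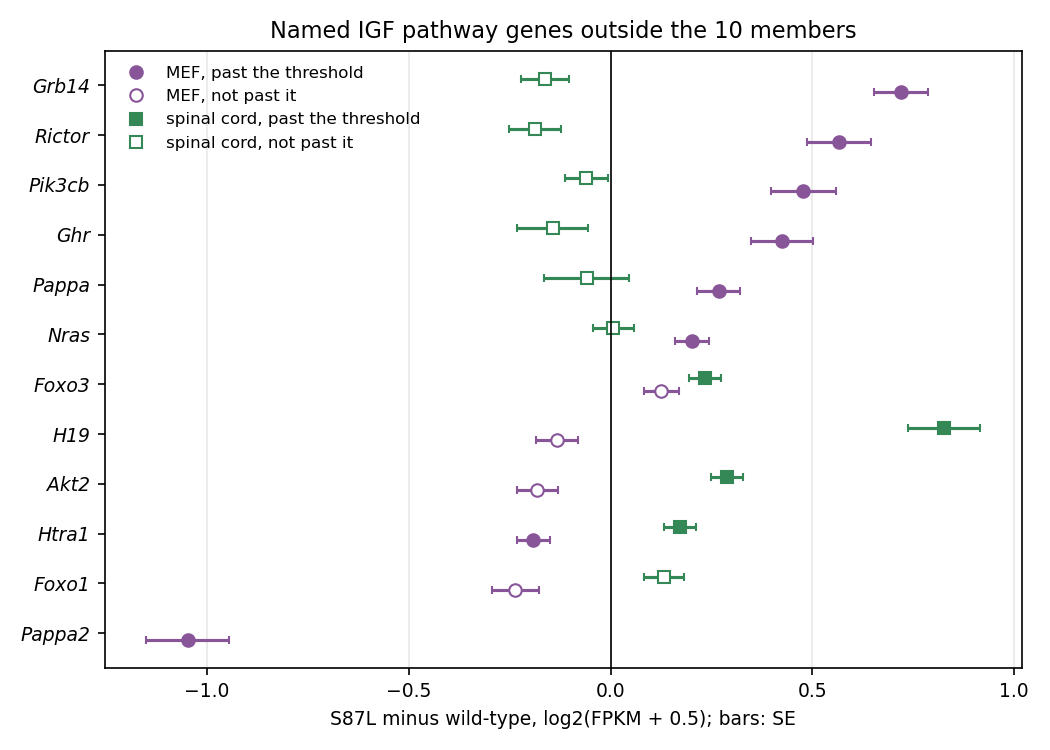
Difference of S87L minus wild-type on the log2(FPKM + 0.5) scale for the named pathway genes outside the 10, circles for MEF and squares for spinal cord, filled where the adjusted p was under 0.05, with bars of 1 SE from limma. Grb14, Rictor, Pik3cb and Ghr lie to the right of 0 in MEF and to the left in cord, H19, Akt2, Htra1 and Foxo1 the reverse, and Pappa2 has no cord value because it was below the level filter.

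Several genes of the family did not pass the test or were nearly absent. Insr, the insulin receptor, which can pair with the IGF1 receptor, was at 5.16 to 5.23 FPKM in wild-type and 5.56 and 5.87 in S87L MEF (0.13 ± 0.05, limma adjusted p = 0.181), and did not pass in cord (-0.11 ± 0.06, limma adjusted p = 0.26). Grb10, an imprinted inhibitor of the receptor, was at 162 to 166 FPKM in wild-type and 160 and 166 in S87L MEF (limma adjusted p = 0.874). Igfbp1, 3.54 kb from Igfbp3, was listed at 0 in all MEF and S87L cord libraries and had 2 reads in all in wild-type cord.

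Whether the genotype difference itself differed between MEF and cord was tested as the interaction term over all 11 libraries, in which 13.1% of all 15811 genes passed. Of the other pathway genes 12 of 61 (19.7%) passed, 6 with the larger value in MEF and 6 in cord. The difference in MEF minus that in cord was -0.96 ± 0.08 for H19, 0.88 ± 0.08 for Grb14 and 0.75 ± 0.10 for Rictor (limma adjusted p = 6.62e-05, 7.71e-05 and 0.00127). Pappa2 (-0.92 ± 0.11), counted among the 12, passed the level filter only through MEF, so its value is given with no test. Its cord level was at most 0.159 FPKM, where the added 0.5 presses a difference toward 0. In both tissues Pappa2 was lower in S87L without overlap, with ratios of means of 0.326 in MEF and 0.644 in cord. Akt2 (-0.47), Htra1 (-0.36), Pik3cb (0.54) and Foxo1 (-0.37) passed too (limma adjusted p = 0.000776, 0.00252, 0.00322 and 0.00655). The others were Ghr, Gab1, Map2k1 and Airn, and each of these 4 calls was lost without at least 1 library. Of the 10 IGF system genes 6 were past the threshold in this term, Igfbp2, Igfbp3, Igfbp4 and Igf1 below 0 and Igfbp7 and Igf2r above it, from which nothing is read because both contrasts were in view when they were chosen.

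Between wild-type MEF and cord, 54 of the 61 tested pathway genes passed (88.5% against 87.6% of all genes), 30 higher and 24 lower in MEF, a share near that of all genes. Of the 56 at 0.5 FPKM or more in both groups 49 passed (87.5%), 25 higher and 24 lower. H19 stood at a log2 difference of 10.61 and Grb10 at 4.06 (limma adjusted p = 8.31e-12 and 1.1e-10). A further 4 named genes passed the level filter only through MEF, so their levels are given with no test. Of the genes for the proteins that bind Igf2 mRNA, Igf2bp2 was at 21.9 FPKM in wild-type MEF and 0.0927 in wild-type cord, and Igf2bp3 and Igf2bp1, at 12.9 and 10 FPKM in MEF, were listed at 0 in all wild-type cord libraries. Adam12, a protease of binding proteins, was at 19.5 and 0.372 FPKM. The adaptor Shc1 was higher in MEF by 3.67 and the imprinted zinc finger gene Plagl1 by 2.47 (limma adjusted p = 2.86e-10 and 1.48e-09).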

How the data were processed

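RNA-seq of 11 libraries was analysed from 1 table. The authors deposited FPKM values for 55487 Ensembl genes. The submitters' processing notes name HTSeq 0.11.3, HISAT2 2.2.1, Trimmomatic 0.39 and Picard 2.25.5, and the build GRCm38. The sources used here give no role for each, and do not say if counting used the strand of the directional kit. GENCODE M21 gave symbols for 55227 genes. FPKM times exon length moved in whole reads (within 0.05) for 98.51% to 98.6% of values, which gave the depth, and no count test was run on them.

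Each comparison was fitted with limma 3.58.1 (R 4.3.3, eBayes with trend and robust) to log2(FPKM + 0.5). Genes whose FPKM averaged 0.5 or more in its libraries were tested, with Benjamini-Hochberg adjustment over all of them. Differences on this scale understate the change of low genes. Groups came from the library titles. The script was tested on simulated data with known changes.

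The 10 genes and the pathway and marker lists were chosen with earlier results of these data known. Named pathway genes were those called with the smallest p, up to 8 per comparison, with a mean of at least 1 FPKM in the higher group, plus Igfbp1, Insr, Pappa, H19 and Grb10. Other scalings, filters, pseudocounts, library weights, a fit of all libraries, a replicate block and leaving out each library were tried. Promoter sequences are from RefSeq (GRCm38.p6).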

Additional observations from a re-analysis of the deposited data

Results flagged for a closer look

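The genotype differences of several genes lay on opposite sides of 0 in MEF and in cord. Groups did not overlap for 45.8% of all genes in MEF and 35.1% in cord. The share of genes that did so in opposite directions was not counted. For Igfbp2, Igfbp3 and Igf2r every S87L library lay to one side of wild-type in MEF and to the other side in cord. Their difference in MEF minus that in cord was -1.901 for Igfbp2, -1.331 for Igfbp3 and 0.379 for Igf2r on the log2(FPKM + 0.5) scale, and these values are a description, with the difference not tested as evidence, since the genes were chosen with both contrasts in view.

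For 12 of the 61 other pathway genes tested, the interaction term of the limma fit of 11 libraries passed the threshold. That is 19.7%, against 13.1% of all genes, in a list chosen with earlier results known. H19 was at -0.96, with all S87L cord libraries above and all S87L MEF libraries below wild-type. Grb14 was at 0.883 and Rictor at 0.753, both higher in S87L MEF. Pappa2 was at -0.919, a value read with no test, since it passed the level filter only through MEF. Its cord level was at most 0.159 FPKM, and it was lower in S87L without overlap in both tissues. Akt2 was at -0.471, Htra1 at -0.364 and Foxo1 at -0.369. Pik3cb was at 0.538 and Ghr at 0.567. Map2k1 was at 0.238, Gab1 at -0.234 and Airn at 0.331. The Ghr call was lost without S87L MEF library 1 (limma adjusted p = 0.0521). The Gab1 call was lost without any of 7 libraries (limma adjusted p up to 0.093), that of Map2k1 without any of 6 (up to 0.0715) and that of Airn without any of 10 of the 11 (up to 0.112). The calls of H19, Grb14, Rictor, Akt2, Htra1, Foxo1 and Pik3cb held whichever library was left out.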

How the results depend on the processing

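In MEF 1547 genes were called, and 788 with no filter on low values. Leaving out 1 library gave 565 to 1753. In cord 2016 genes were called, 3098 with library weights and 838 to 1637 without 1 library. The interaction term gave 2075 genes and 1373 to 2261 without 1 library. Of the 10 IGF system genes, 5 were past the threshold in MEF (4 to 5 without 1 library) and 4 in cord (1 to 4). Of the other pathway genes, 11 were called in MEF, 4 with no filter, 18 in the fit of all 11 libraries and 3 to 13 without 1 library. In cord 4 were called, 9 with median ratio scaling, 12 with library weights, 9 in the fit of all 11 libraries and 2 to 6 without 1 library. Median ratio scaling moved the split of cord calls from 809 higher and 1207 lower to 1230 and 874, and that of the interaction from 971 and 1104 to 727 and 1485. Of the differences of the 10 genes, that of Igf1r in cord changed sign under 5 alternatives and that of Igfbp7 in cord without wild-type library 1 or S87L library 2, both near 0 and never past the threshold; the others kept theirs. The cause of these shifts was not tested, other than that leaving out a library leaves fewer samples, and a lone S87L MEF library is assumed to vary like the others. Low cord reads limit Igf2. Whether replicate numbers pair the samples was not settled. In cord the correlation of deviations was 0.149, -0.051 and 0.111 at the same number, and -0.199 to 0.087 at different numbers. In MEF it was -0.07 and -0.028 at the same number. With 2 S87L MEF libraries the deviations of the pair mirror each other, so the MEF values cannot decide. With the replicate block 182 genes, 3 of the 10 IGF system genes and 0 other pathway genes were called by limma in MEF, and the interaction term gave 1030 genes. In cord the block gave 1663 genes.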
